A study of Mus musculus with 148 samples.

Results

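Immune cells taken from the photoactivated core of breast cancer lung metastases were compared with immune cells taken from the whole lung section that carried the metastasis, in the same mice. Core plates were those labelled MET Core, on which GFP+ cells had been sorted, and section plates were those labelled MET, on which CD45+ cells of the lung section had been sorted without photoactivation. In 12 mice both tissues were sampled, which gave 24 of the 63 samples of the study, 48 of its 148 plates (21 core, 27 section) and 6388 of its 23425 immune cells (2567 core, 3821 section). Mouse 17 had a core only and mouse 33 a section only, so they entered 1 unpaired alternative and none of the paired tests.

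All of these animals were female C57/b6 PA-GFP mice, which carry a photoactivatable GFP, injected at 8 weeks of age with EO771 cells expressing tdTomato, a mouse mammary tumor cell line, in the inguinal mammary gland. The primary tumor was resected 3 weeks later, and lungs were collected shortly after CT imaging first detected metastases. EO771 is 1 tumor line in 1 inbred strain, and nothing in the design separates animals by treatment. In the 12 paired mice the core gate was CD31-negative and GFP-positive with no CD45 gate, whereas the section gate was CD31-negative and CD45-positive, so the sorting gate and the region cannot be told apart in any core against section difference. The authors' annotation called 5 erythrocytes, 6 tumor cells and 39 outliers among 2617 annotated wells of the core, and 9, 5 and 22 among 3857 of the section, and these were left out.

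In NICHE-seq, a chosen microscopic field of the intact explanted tissue is illuminated so that cells standing there become GFP-positive and can be sorted. A whole section mixes cells of the lesion with cells of the lung around it. Lung metastases attract blood monocytes, which can mature into macrophages, and T and NK cells, the lymphocytes able to kill tumor cells. Naive T cells keep the transcription factor Lef1 and the interleukin-7 receptor, while CD8 T cells that have met antigen acquire granzymes and, with lasting stimulation, inhibitory receptors such as Lag3. Neutrophils are abundant in the lungs of tumor-bearing animals, and the suppressive form found in cancer is called PMN-MDSC. Subpopulations carry here the authors' names, each built from a lineage and a marker gene.

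Core samples held 77 to 510 immune cells (median 162.5) and section samples 63 to 584 (median 308). The median number of unique molecular identifiers (UMIs, each standing for 1 captured transcript) per immune cell was 686 to 1542 in the core (median 791.5) and 629 to 1590 in the section (median 1006.5), which was not a detectable difference (mean paired log2 difference -0.18, exact sign-flip permutation test, two-sided, p = 0.242). In the 3 mice whose sections came from 2 sequencing batches the section was the deeper, with medians of 1590 against 766 UMIs in mouse 24, 1409 against 817 in mouse 31 and 1444.5 against 694 in mouse 32. Mitochondrial UMIs made up 2.00% and 2.11% on average (exact sign-flip p = 0.281). No well was shared between plates. In 212 wells kept empty as controls the median was 7 UMIs and the maximum 81. Every marker fixed for T cells, NK cells, monocytes, macrophages and neutrophils was detected in cells of that label in both tissues. Cores and sections were sequenced in the same batch in 9 mice, and in mice 24, 31 and 32 the section plates came from 2 batches. Each mouse gave 1 core and 1 section sample, and the paired p-values measure the spread of the differences between animals.

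The immune makeup of the core differed from that of the section. T cells made up a larger share of immune cells in the core, at 34.0% ± 16.9 (SD, n = 12) against 17.1% ± 8.00, NK cells were also higher, at 12.96% ± 8.32 against 7.65% ± 4.43, and monocytes were lower, at 23.2% ± 13.6 against 39.1% ± 8.99. B cells fell from 2.93% ± 2.5998 to 0.911% ± 0.797. These 4 of 7 lineages (57.1%) passed an adjusted p of 0.05 in the exact sign-flip permutation test of paired differences, two-sided and adjusted by the Benjamini-Hochberg method over the lineages. The smallest p this test can give with 12 mice is 0.000488. Shares of a sample sum to 100%, so a rise in one lineage lowers the others.

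T cells ranged from 10.9% to 58.9% of core cells with a median of 29.7%, and from 5.17% to 31.3% of section cells with a median of 14.7%. The share was higher in the core in 11 of 12 mice, by 16.9 percentage points on average (exact permutation adjusted p = 0.00684), although the ranges of both tissues overlapped. Among the 9 mice sequenced in a single batch the difference was 17.9 points (exact permutation adjusted p = 0.0273). The other tissues of the same mice stood at 21.6% in distal normal lung (n = 12, gated as the section was) and 29.6% in the invasive margin (n = 5, gated as the core was), given as values without a test.

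NK cells, innate lymphocytes that kill without prior priming, spanned 1.90% to 32.5% of core cells (median 11.2%) and 1.63% to 15.4% of section cells (median 5.97%). They were higher in the core in 9 of 12 mice, by 5.31 points (exact permutation adjusted p = 0.0205). Without mouse 32, whose difference was 28.5 points, the mean difference was 3.197 points and still passed. Within the 9 single-batch mice the difference was 3.00 points with an exact permutation adjusted p of 0.0638, and NK cells did not pass without the pairing by mouse, with all samples unpaired or among cells of at least 1000 UMIs.

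Monocytes spanned 6.96% to 47.2% in the core (median 18.8%) and 28.6% to 54.0% in the section (median 34.7%). The share was lower in the core in 11 of 12 mice, a mean difference of -15.9 points (exact permutation adjusted p = 0.0188). The exception was 1 mouse in which it was 14.8 points higher. Monocytes stood at 38.7% in distal normal lung and 22.6% in the margin. Within the 9 single-batch mice the mean difference was -18.0 points with an exact permutation adjusted p of 0.0638. On centred log-ratios, which set each lineage against the geometric mean of all lineages, the difference was -0.65 with an exact permutation adjusted p of 0.0813.

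B cells were few, with 20 cells in all cores and 150 in all sections, and their share was lower in the core in 9 of 12 mice (difference -2.02 points, exact permutation adjusted p = 0.0299). Leaving out any 1 of mice 23, 24, 28, 31, 32 or 36 took the adjusted p to between 0.0547 and 0.0598. B cells did not pass within the 9 single-batch mice (-1.47 points), on centred log-ratios, among cells of at least 1000 UMIs, with all samples unpaired, with section plates of the core's batch alone or after thinning to equal UMIs per well. Neutrophils made up 8.22% ± 16.4 of core cells and 15.7% ± 13.01 of section cells (difference -7.52 points, lower in 9 of 12 mice, exact permutation adjusted p = 0.0902). The core of mouse 37 was 59.5% neutrophils, while the median core held 3.58%. Without mouse 37 the difference was -9.77 points (exact permutation adjusted p = 0.0188). This was the only 1 of 12 exclusions that passed, with exact permutation adjusted p up to 0.180 in the others.

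Macrophages (14.7% in the core, 12.98% in the section) and dendritic cells (6.02% and 4.54%) showed no detectable difference in share, with exact permutation adjusted p of 0.684 and 0.225. The paired macrophage difference ran from -24.2 to 32.6 points across mice. The plot of lineage shares by mouse shows these pairs.

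**Figure D1:**
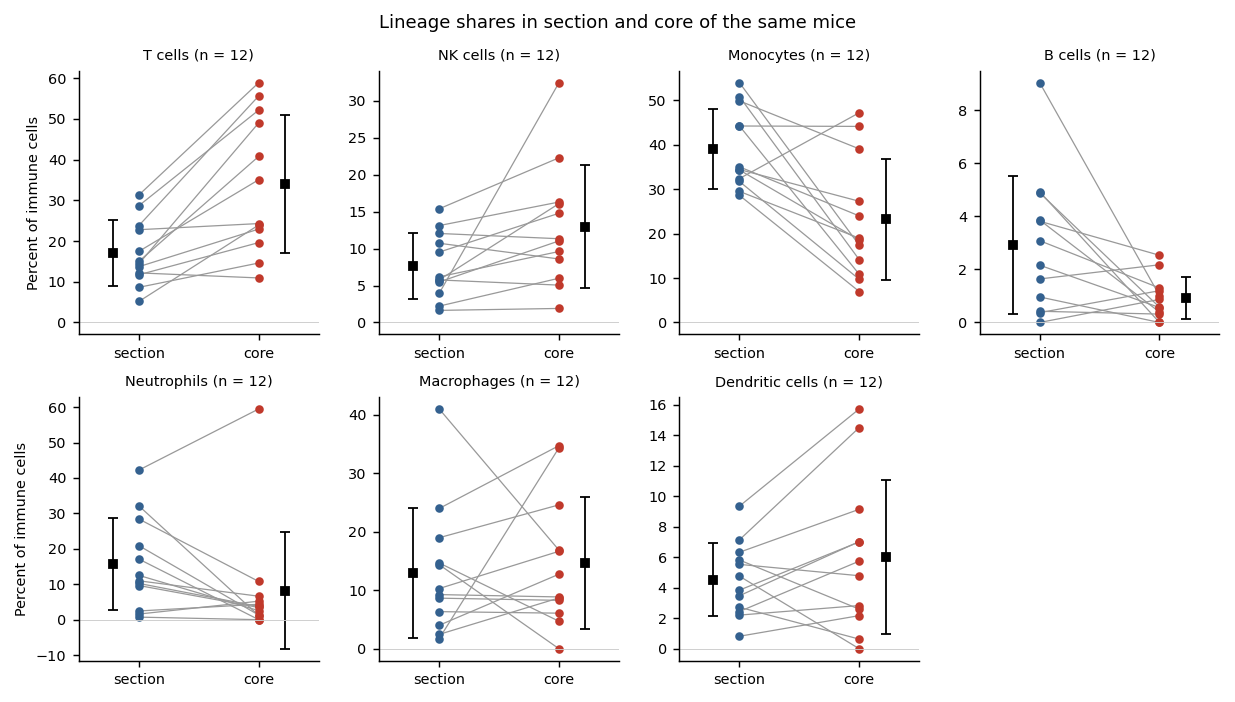
Percent of immune cells in each lineage (y axis) in the section and the core of the same 12 mice. Points are mice, gray lines join the 2 tissues of a mouse, and squares with bars are the mean ± SD. T cells were higher in the core in 11 mice and monocytes lower in 11, and 1 core stands at 59.5% neutrophils.

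GFP+ and GFP- plates of photoactivated lungs from the relapse-free mice 6 and 7 give the shares with and without photolabel in lungs with no detected metastasis. By the sample labels, a CD45 gate was set for the GFP- plates and none for the GFP+ plates, and the GFP- plates of each mouse came from 2 sequencing batches against 1, so photolabel and CD45 gate cannot be told apart here. The paper describes such a comparison in control lungs, with CD45 gated for both GFP+ and GFP- cells. It reports that photoactivation significantly altered neither population frequencies nor expression. T cells were 51.8% of GFP+ and 50.0% of GFP- cells in mouse 6, and 51.0% and 44.2% in mouse 7. Monocytes were 19.01% and 19.5% in mouse 6 and 15.2% and 16.1% in mouse 7. NK cells were 16.5% of GFP+ and 16.8% of GFP- cells in mouse 6, and 17.9% and 21.7% in mouse 7. The B cell share was the lower one on the GFP+ plates of each mouse, at 2.11% against 3.64% and 1.54% against 2.61%. With 2 mice no test was made.

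The makeup within lineages also differed. Of 26 subpopulations, 3 (11.5%) passed the test as a share of their own lineage, which were the naive-like CD4 Lef1 T cells and the Mon Fn1 monocytes, a population the study describes as inflammatory, both lower in the core, and the effector-type CD8 Gzmk T cells, higher in the core. Shares of a lineage were computed in mice with at least 5 of its cells in both tissues.

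CD4 Lef1 cells were 22.03% ± 9.26 of T cells in the core, from 10.4% to 35.9%, and 40.6% ± 11.8 in the section, from 21.4% to 60.0%. The share was lower in the core in 11 of 12 mice, a mean difference of -18.5 points (exact permutation adjusted p = 0.0254). As a share of all immune cells the same subpopulation was 7.96% in the core and 7.33% in the section (exact permutation adjusted p = 0.641), so that its share of T cells was lower while its share of all immune cells was not detectably different.

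CD8 Gzmk cells, named for granzyme K, rose from 23.6% ± 5.85 to 34.3% ± 9.74 of T cells and were higher in the core in 10 of 12 mice (difference 10.7 points, exact permutation adjusted p = 0.0254). Of all immune cells they were 11.51% ± 6.01 in the core and 4.14% ± 2.32 in the section, and this share was higher in every one of the 12 mice (exact permutation adjusted p = 0.00635). Both T cell calls are close to the threshold. Leaving out any 1 of mice 23, 24, 25, 28, 30, 34, 36 or 37 took the adjusted p of CD4 Lef1 and of CD8 Gzmk to 0.0508, with differences of -20.8 to -16.9 and 8.98 to 11.8 points over all 12 exclusions. Among cells of at least 1000 UMIs 5 mice were left, and CD8 Gzmk turned to -4.06 points. With 5 mice the smallest p of the exact permutation test is 0.0625, so neither could pass there. Neither passed in the 9 single-batch mice (CD4 Lef1 -18.4 and CD8 Gzmk 12.7 points, exact permutation adjusted p = 0.0677 for both). With 9 mice the smallest p of the exact permutation test is 0.00391, before adjustment over 26 subpopulations. Neither passed with at least 20 T cells in each tissue, where 7 mice allow a smallest p of 0.0156 in this test. CD8 Gzmk did not pass with section plates of the core's batch alone (7.90 points, exact permutation adjusted p = 0.226).

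CD8 Lag3 cells, named for an inhibitory receptor, were 16.8% ± 11.9 of T cells in the core and 9.11% ± 13.3 in the section. The share of T cells was higher in 11 of 12 mice but did not pass (exact permutation adjusted p = 0.315). The section of mouse 26, where T cells were only 5.17% of 271 immune cells, had the highest value, 50.0% of its T cells. Without that mouse the difference was 10.9 points (exact permutation adjusted p = 0.0127). This was the only 1 of 12 exclusions that passed, with exact permutation adjusted p up to 0.499 in the others. Of all immune cells CD8 Lag3 cells were 5.83% ± 5.31 in the core and 1.17% ± 0.978 in the section, higher in 12 of 12 mice (exact permutation adjusted p = 0.00635). Regulatory T cells, which restrain other T cells, were 1.86% ± 1.26 of immune cells in the core and 0.540% ± 0.674 in the section, higher in 11 of 12 mice (exact permutation adjusted p = 0.0152). As a share of T cells they were 6.38% and 4.05% (exact permutation adjusted p = 0.349).

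Among monocytes, Mon Fn1 cells, named for fibronectin, were 30.9% ± 14.8 in the core, with a median of 29.7% and a maximum of 61.9%, and 54.5% ± 16.2 in the section, with a median of 51.9% and a maximum of 80.6%. They were lower in 11 of 12 mice, a mean difference of -23.5 points (exact permutation adjusted p = 0.0339). The call held without mouse 32, at -27.9 points, and leaving out any 1 of the other 11 mice gave adjusted p between 0.0508 and 0.0677. It was lost among cells of at least 1000 UMIs, with at least 20 monocytes in each tissue, and in the 9 single-batch mice (-27.1 points, exact permutation adjusted p = 0.0677). With 9 mice the smallest p of this test before adjustment is 0.00391. Mon Thbs1 cells, named for thrombospondin, were 44.3% ± 24.7 of core monocytes and 21.7% ± 13.5 of section monocytes, higher in 10 of 12 mice without passing (exact permutation adjusted p = 0.0914). Without mouse 32, in which the order was turned, the difference was 27.7 points (exact permutation adjusted p = 0.0317). No other of the 12 exclusions passed, with exact permutation adjusted p up to 0.183.

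Distal normal lung held 70.5% Mon Fn1 and 4.65% Mon Thbs1 cells among its monocytes, and the margin 71.1% and 5.83%. In the mean over mice the section thus stood between the distal lung and the core for both, while the margin stood beside the distal lung. CD4 Lef1 cells were 51.1% of T cells in distal lung and 28.4% in the margin, and CD8 Gzmk cells 22.3% and 36.7%. These tissues were not tested against the core.

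Macrophage subpopulations were compared in 9 mice. Mac Cd9 cells were 0.537% ± 1.07 of core macrophages and 13.7% ± 16.1 of section macrophages, lower in the core in 7 mice and higher in none (exact permutation adjusted p = 0.0914). The unadjusted exact permutation p of 0.0156 was the smallest that these pairs could give, since the other mice had equal shares. They were 68.7% of macrophages in distal normal lung (n = 5), and as a share of all immune cells they fell from 1.12% ± 1.11 to 0.118% ± 0.277 (12 mice, exact permutation adjusted p = 0.0169). Mac Isg20 cells, named for an interferon-stimulated exonuclease, were 55.1% ± 19.3 in the core and 36.2% ± 19.3 in the section (exact permutation adjusted p = 0.159). Distal normal lung had 5.21% and the margin 14.6% Mac Isg20 cells (n = 5 each). Mac Gpnmb cells, the regulatory macrophages or Mregs of the study, were 24.2% ± 19.8 in the core and 26.4% ± 14.3 in the section (exact permutation adjusted p = 0.863), beside 61.5% ± 30.2 in the margin.

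NK Xcl1 cells, named for the chemokine that draws cross-presenting dendritic cells, were 19.4% ± 13.4 of core NK cells and 8.88% ± 7.19 of section NK cells in 11 mice (exact permutation adjusted p = 0.159). Of all immune cells they rose from 0.641% ± 0.538 to 2.23% ± 2.12 (12 mice, higher in 10, exact permutation adjusted p = 0.0152). Mon Ace cells, the classic monocytes of the study, were 2.45% of core and 5.14% of section immune cells (exact permutation adjusted p = 0.0381), and 12.5% and 14.2% of monocytes (exact permutation adjusted p = 0.779). In all, 7 of 26 subpopulations (26.9%) passed as a share of immune cells, a measure that moves with the lineage shares above.

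PMN-MDSC cells were 21.3% ± 14.3 of core neutrophils and 2.49% ± 2.29 of section neutrophils in the 5 mice with enough neutrophils, higher in 4 and equal at 0 in the fifth. With 5 mice the smallest possible p is 0.0625, and with the fifth difference at 0 it is 0.125, the value obtained. This comparison thus could not pass (exact permutation p = 0.125, adjusted p = 0.315). Of all immune cells in the 12 mice, where the test could pass, PMN-MDSC cells were 1.76% ± 4.27 in the core and 0.580% ± 0.853 in the section, higher in 5 mice and lower in 3 (exact permutation adjusted p = 0.491). Distal normal lung had 0.100% (n = 10) and the margin 0% (n = 4) of such cells among neutrophils. Of all immune cells the other neutrophil subpopulations Neut Ifit3, Neut Lcn2, Neut Camp and Neut Ptgs2 were 0.538%, 3.14%, 0% and 2.78% in the core and 2.46%, 6.63%, 0.537% and 5.53% in the section (exact permutation adjusted p = 0.0508, 0.0508, 0.0813 and 0.249). As shares of their lineage, the 4 dendritic cell subpopulations, Mac Cd81, Mac Gpnmb, Mon MHC-II, Neut Ptgs2, CD4 S100a4, CD8 Dapl1 and CD8 Gzma, 11 in all, had differences between -7.06 and 6.09 points, and their lowest adjusted p in the exact permutation test was 0.711.

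**Figure D2:**
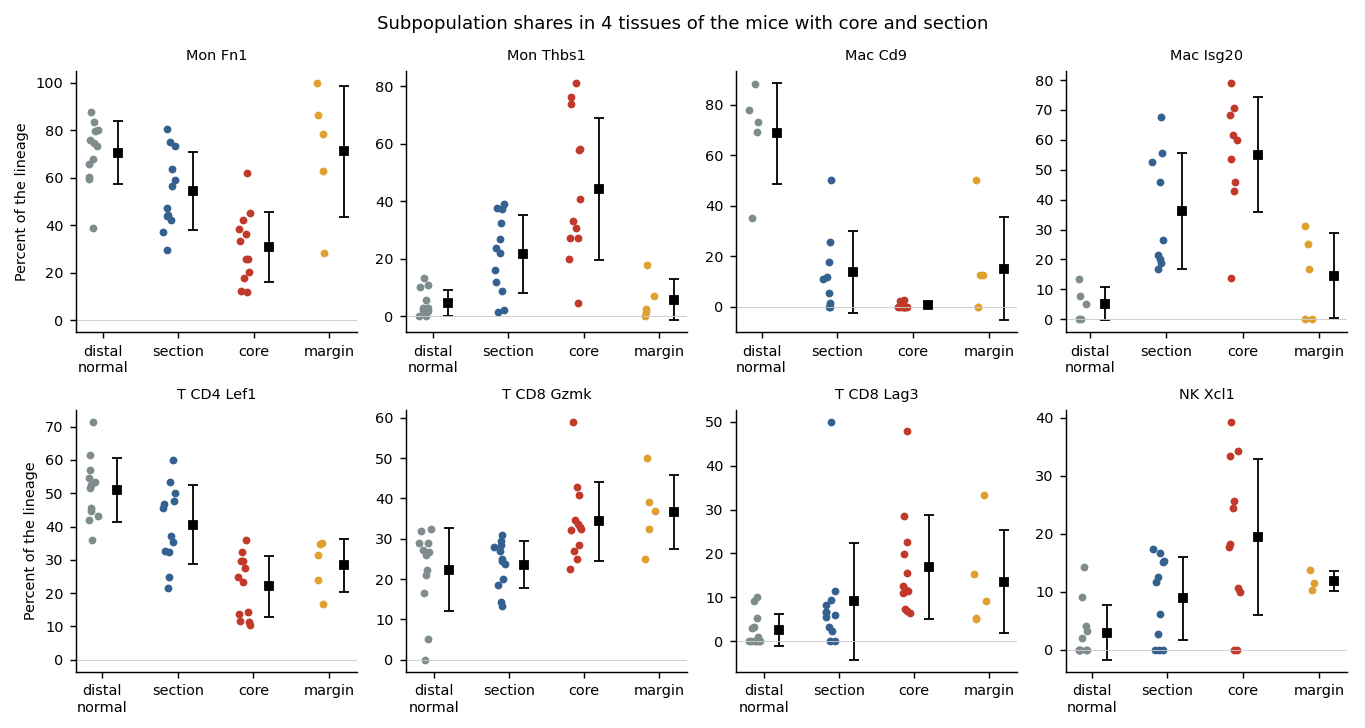
Percent of the lineage (y axis) for 8 subpopulations in distal normal lung, section, core and invasive margin of the 12 mice, with core and section points for mice that had at least 5 cells of the lineage in both. Points are mice and squares with bars are the mean ± SD. Mon Fn1 and CD4 Lef1 cells are lower in the core than in the section, and Mon Thbs1 cells reach 81.3% in the core.

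Ratios of 2 cell numbers within a sample do not change with the number of cells outside the pair. The study used ratios of this kind, but the cells entering each were chosen here, where activated T cells hold CD8 Lag3 and CD4 S100a4 beside the CD8 Gzma and CD8 Gzmk cells of the study's ratio, and lymphocytes are T, NK and B cells where the study set neutrophils against T cells. The log2 ratio of activated to naive T cells (CD8 Gzmk, CD8 Gzma, CD8 Lag3 and CD4 S100a4 over CD8 Dapl1 and CD4 Lef1, with 1 cell added to each side) was 1.31 ± 0.78 in the core and 0.15 ± 0.73 in the section. It was higher in 10 of 12 mice, by 1.16 on the log2 scale (exact permutation adjusted p = 0.00586). Distal normal lung had a ratio of -0.48 and the margin 0.89. The 2 tissues overlapped, with a core range of 0.18 to 2.56 and a section range of -0.90 to 1.58.

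The log2 ratio of neutrophils to lymphocytes was -3.46 ± 1.87 in the core and -1.21 ± 1.85 in the section, lower in 11 of 12 mice (difference -2.25, exact permutation adjusted p = 0.00586). Mon Thbs1 to Mon Fn1 stood at 0.42 ± 1.504 in the core against -1.61 ± 1.67 in the section, higher in 10 of 12 mice (difference 2.04, exact permutation adjusted p = 0.0111). The ratio of Mac Isg20 to Mac Gpnmb cells was 0.77 ± 1.72 against 0.38 ± 0.92 and did not pass (difference 0.39, exact permutation adjusted p = 0.473). In the margin this last ratio was -1.93 ± 2.06.

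**Figure D3:**
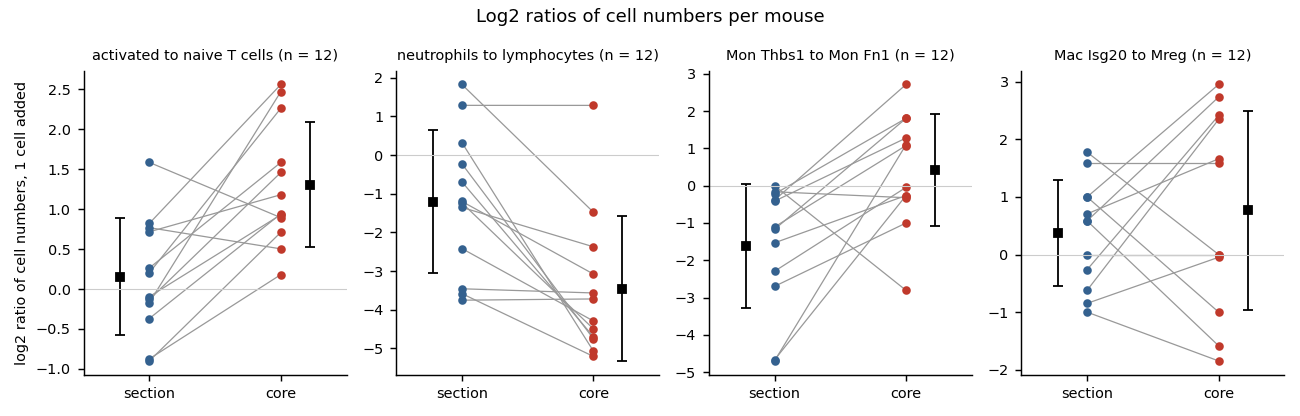
Log2 ratio of cell numbers with 1 cell added to each side (y axis) in the section and the core of the same 12 mice. Points are mice, gray lines join the tissues of a mouse, squares with bars are the mean ± SD. The T cell ratio and the Mon Thbs1 to Mon Fn1 ratio are higher in the core in 10 mice each, and the neutrophil to lymphocyte ratio is lower in 11.

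For gene expression, UMI counts of a lineage were added up within each mouse and tissue, in mice with at least 10 of its cells in both. The test was the quasi-likelihood test of edgeR with the mouse as block, Benjamini-Hochberg adjusted over the genes tested in the lineage. Levels are given as CPM, the UMIs of a gene scaled to a common UMI total of that lineage in each mouse and tissue. Neutrophils were the only lineage with genes that passed, 3 of 308 tested (0.974%), all higher in the core. In monocytes 0 of 1093, in macrophages 0 of 1424, in T cells 0 of 655 and in NK cells 0 of 423 genes passed. At an unadjusted p under 0.05 there were 129 (11.8%), 60 (4.21%), 69 (10.5%) and 18 (4.26%) genes, and 43 (14%) in neutrophils. DESeq2 on the same sums called 16 genes in monocytes (1.46%), 5 in neutrophils (1.62%) and 0 in the other 3 lineages.

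The neutrophil genes were the chemokines Ccl3 and Ccl4 (neighbors on mm10 chromosome 11, at 83647844 to 83649355 and 83662584 to 83664683), which attract monocytes and lymphocytes, and Cdkn1a (chromosome 17, 29090976 to 29100727), which encodes the p21 inhibitor of the cell cycle. The comparison rests on 5 mice with 17 to 94 neutrophils in the core and 26 to 155 in the section.

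Ccl4 stood at 761, 29915, 2597, 9512 and 3366 CPM in the cores of mice 26, 28, 30, 36 and 37, and at 187, 1270, 300, 873 and 707 CPM in their sections. Its level was higher in the core in 5 of 5 mice, with a fitted log2 fold change of 3.07 ± 0.37 (SE, edgeR adjusted p = 0.000302). The ranges overlapped, since the core of mouse 26 lay below the sections of mice 28 and 36, and the other 4 cores lay above every section. Distal normal lung had 429 CPM on average in neutrophils and the margin 286.

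Ccl3 stood at 0, 11226, 1204, 3720 and 1933 CPM in the same cores and at 0, 665, 0, 682 and 231 CPM in the sections. The level was higher in the core in 4 mice, and mouse 26 had no Ccl3 UMI in either tissue (log2 fold change 3.34 ± 0.46, SE, edgeR adjusted p = 0.000913). Cdkn1a stood at 819, 4292, 760, 1159 and 1161 CPM in the cores and at 200, 1189, 60.1, 273 and 262 CPM in the sections, higher in 5 of 5 mice (log2 fold change 2.07 ± 0.35, SE, edgeR adjusted p = 0.0042). Mouse 28 was the highest for Cdkn1a in both tissues. All 3 genes passed when any 1 of the 5 mice was left out, and 0 genes passed in a fit without the mouse as block. DESeq2 called the same 3 genes, the lectin Clec4n and the transcription factor Jun, which were higher in 5 of 5 mice (log2 fold changes 2.23 ± 0.54 and 1.96 ± 0.48, SE, both with an edgeR adjusted p of 0.0671).

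The share of PMN-MDSC among neutrophils was also higher in the core in 4 of the 5 mice, while mouse 26 had no such cell in either tissue. Over the 5 mice pooled, PMN-MDSC cells held 8260 CPM of Ccl3 and 12090 CPM of Ccl4 in the core (39 cells) and 6594 and 10347 CPM in the section (11 cells). In the Neut Ptgs2 subpopulation, named for the cyclooxygenase that makes prostaglandins, Ccl4 was 7517 CPM in the core (64 cells) and 700 CPM in the section (115 cells), and Ccl3 2031 and 247 CPM. In Neut Lcn2 cells Ccl4 was 636 CPM in the core and 264 CPM in the section. These pooled levels mix mice with subpopulations, since Neut Lcn2 cells were 83.3% of core neutrophils in mouse 26, whose core had the lowest Ccl4. When PMN-MDSC cells were left out, no gene passed edgeR (0 of 303 tested). Ccl4 then had a log2 fold change of 2.71 and Cdkn1a of 1.72, both with an edgeR adjusted p of 0.470, and Ccl3 no longer passed the filter on low counts. In mouse 36 the order of both chemokines then turned, with 0 CPM of Ccl4 in the core (11 cells) and 261 in the section and 0 and 145 CPM of Ccl3. Ccl4 in mice 26, 28, 30 and 37 stood at 761, 23369 (13 cells), 2751 and 2916 CPM in the cores. In their sections it stood at 187, 516, 300 and 476 CPM. Cdkn1a in mice 26, 28, 30, 36 and 37 stood at 819, 4090, 869, 454 and 619 CPM in the cores. In their sections it stood at 200, 1114, 60.1, 290 and 209 CPM. The part of the subpopulation mix in the result was otherwise not tested.

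Markers of other cell types were also summed in the neutrophils. Cd3e, a chain of the T cell receptor complex, had 0 UMIs in neutrophils of both tissues in the 5 mice. Over the 5 cores and the 9 sections with at least 10 neutrophils, T cell markers summed to at most 0.0122% of neutrophil UMIs and NK cell markers to at most 0.0246%. Neutrophil markers made up 8.46% to 38.5% of neutrophil UMIs in the cores and 7.30% to 41.8% in the sections. Monocyte markers ranged from 0.207% to 0.806% in the cores and 0.273% to 0.535% in the sections, beside 0.691% to 1.65% in core monocytes themselves. The part of monocyte transcripts in the result was not tested.

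**Figure D4:**
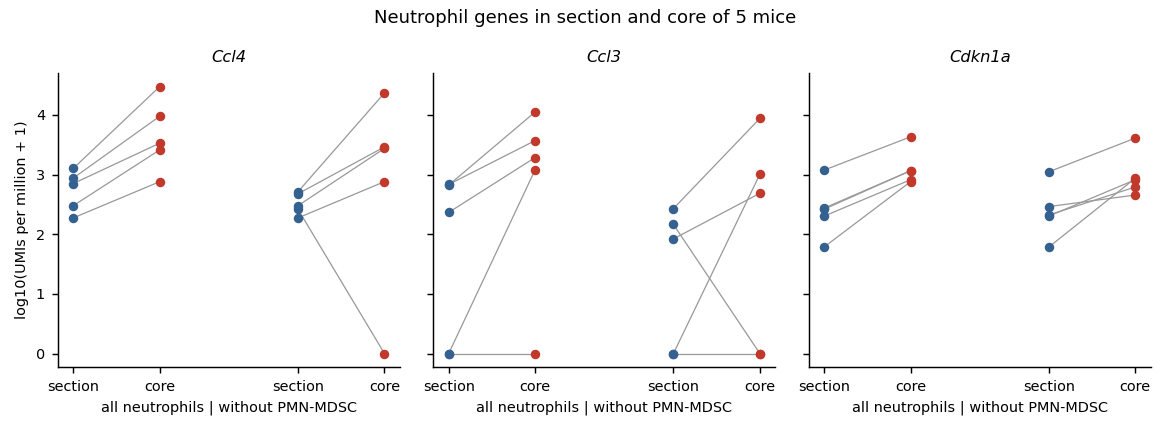
Level of Ccl4, Ccl3 and Cdkn1a in neutrophils (y axis, log10 of CPM plus 1) in section and core of 5 mice, in all neutrophils on the left of each panel and without PMN-MDSC cells on the right. Points are mice and gray lines join the tissues of a mouse. Ccl4 and Cdkn1a are higher in the core in all 5 mice on the left, and on the right 1 core is at 0 for Ccl4.

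The same chemokine genes in the other lineages did not pass, and were looked up after the neutrophil values were seen. Ccl3 had a log2 fold change of 0.93 ± 0.34 in macrophages (SE, unadjusted p under 0.05, edgeR adjusted p = 0.995), 0.57 ± 0.44 in monocytes (0.650) and -0.37 ± 0.42 in NK cells (0.969), and did not pass the filter on low counts in T cells. Ccl4 had a log2 fold change of 2.01 ± 0.55 in T cells (SE, edgeR adjusted p = 0.223), 1.11 ± 0.37 in monocytes (0.226), 0.60 ± 0.46 in macrophages (0.995) and -0.08 ± 0.28 in NK cells (0.969). In T cells the median was 1459 CPM in the core and 185 CPM in the section, higher in 10 of 12 mice. The section of mouse 26, where T cells were only 5.17% of 271 immune cells, reached 14985 CPM. Without that mouse the T cell fold change of Ccl4 was 2.54 (edgeR adjusted p = 0.00308). It was also past the threshold without mouse 32, at 2.32 (0.0414). These were the only 2 of 12 exclusions in which it passed, with edgeR adjusted p up to 0.463 in the others. Cdkn1a is given as levels pooled over the cells of the 5 mice of the neutrophil fit, without a test. Core against section, it was 2965 against 1299 CPM in monocytes, 1540 against 1245 in macrophages and 1716 against 815 in dendritic cells. It was 267 against 75.0 in NK cells, 103 against 89.5 in T cells and 0 against 82.4 in B cells, beside 1337 against 374 in neutrophils. These pooled levels weigh mice by their cells, and mouse 28 gave 183 Mon Thbs1 cells of the 391 core monocytes. In the edgeR fits of monocytes, macrophages, T cells and NK cells, Cdkn1a was not among the genes at an unadjusted p under 0.05.

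Of the listed groups, chemokines had 4 genes tested in neutrophils and 2 called, beside 3 of 308 genes in all (0.974%), and Cxcl2, a neutrophil attractant, had an unadjusted p under 0.05 in the same direction. The tested genes of the list named for neutrophil granules were all below 0, 11 of 11 with a median log2 fold change of -0.64 against -0.08 over the 308 genes, and none passed. Among them S100a8, a calprotectin chain, had 104119 CPM on average in the core and 134970 in the section (log2 fold change -0.55 ± 0.18, lower in 5 of 5 mice, edgeR adjusted p = 0.256). Of the list of lipid-associated macrophage genes 6 were tested in neutrophils and 6 were above 0 (median 0.78), with the cathepsins Ctsb and Ctsd and the cathepsin inhibitor Cstb at an unadjusted p under 0.05, a level reached by 14% of the neutrophil genes. The mix of neutrophils also differed in the mean, with PMN-MDSC cells at 21.3% of core and 2.49% of section neutrophils. In the core PMN-MDSC cells held 13543 CPM of S100a8, Neut Ptgs2 cells 44477, Neut Lcn2 cells 139977 and Neut Ifit3 cells 121653. Levels by subpopulation were not computed for the lipid-associated list. Neutrophil markers were above 0 in 2 of 9 tested (median -0.45). The part of this mix in the values of the lists was not tested. The genes in neutrophils without a call but with the lowest p downward included Rac2, a GTPase of the oxidative burst (-1.01 ± 0.34, edgeR adjusted p = 0.256).

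No monocyte gene passed edgeR, although the 3 lowest p in each direction gave an adjusted p of 0.0760 to 0.0940. Lilr4b, a receptor of the leukocyte immunoglobulin-like family, was at 304 ± 173 CPM in the core and 137 ± 63.9 in the section (log2 fold change 1.13 ± 0.27, SE, higher in 10 of 12 mice, edgeR adjusted p = 0.0760). Mgst1, a glutathione transferase, was at 217 ± 137 against 493.3 ± 164 CPM (-1.13 ± 0.26, lower in 11 of 12 mice, edgeR adjusted p = 0.0760). Idh1, the cytosolic isocitrate dehydrogenase, was at 91.5 ± 87.8 against 302 ± 216 CPM (-1.60 ± 0.39, lower in 10 of 12 mice, edgeR adjusted p = 0.0760). Fn1, whose name marks the Mon Fn1 subpopulation, was at 414 ± 210 against 815 ± 272 CPM (-1.03 ± 0.25, lower in 11 of 12 mice, edgeR adjusted p = 0.0760) and is not independent of that subpopulation's share. The other rises with the lowest p were annotated as Mir692-1, a microRNA locus, and Gm15590, a processed pseudogene, whose UMIs may belong to related sequences. Without mouse 32, 15 of 1079 monocyte genes passed. Among them were Lilr4b and Mgst1 (edgeR adjusted p = 0.0119 for both), Idh1 (0.0208) and Fn1 (0.0480). Each of these genes passed in this exclusion alone.

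DESeq2 called these and 10 further monocyte genes. Those higher in the core were Clec4n, a C-type lectin that senses fungi (edgeR log2 fold change 1.35 ± 0.38), Il1b, the inflammatory cytokine (0.77 ± 0.21), Ms4a6d (0.83 ± 0.22), the Fc receptor Fcgr3 (0.53 ± 0.17) and the ferritin chain Ftl1 (0.43 ± 0.13). Those lower were haptoglobin, Hp (-1.03 ± 0.27), Ifitm6 (-0.82 ± 0.22), the coagulation factor F13a1 (-0.82 ± 0.23), Nadk (-0.93 ± 0.25) and Serinc3 (-0.86 ± 0.22). Their edgeR adjusted p ran from 0.0940 to 0.202, and none passed edgeR. Il1b stood at 2419 ± 747 CPM in the core and 1530 ± 713 in the section, and at 952 CPM in distal normal lung and 836 in the margin.

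Several groups of monocyte genes had most members on the same side of 0, without a called member. The MHC class II genes, which present antigen to CD4 T cells, were above 0 in 6 of 6 tested, with a median log2 fold change of 0.78 against -0.02 over the 1093 genes. An unadjusted p under 0.05 was reached by 5 of them, H2-Aa, H2-Ab1, H2-Eb1, H2-DMa and Cd74, against 129 of 1093 genes (11.8%). Chemokine genes were above 0 in 8 of 8 (median 0.76), with 5 of them, Ccl2, Ccl4, Ccl6, Cxcl2 and Cxcl10, at such a p. Ccl2, the main monocyte attractant, was at 876 ± 873 CPM in the core and 324 ± 302 in the section (1.54 ± 0.51, higher in 9 of 12 mice, edgeR adjusted p = 0.226). It was chosen after its values were seen, and its log2 fold change was the largest of the 1093 genes. Interleukin-1 and inflammatory genes were above 0 in 6 of 6 (median 0.58), 3 of them at such a p, and glycolysis and hypoxia genes in 8 of 8 (median 0.36), 0 of them at such a p. Macrophage markers in the same monocytes were above 0 in 4 of 6 (median 0.43), with Cd68 at such a p, and the neutrophil gene S100a8 was at -0.98 ± 0.29 (edgeR adjusted p = 0.159). The monocyte mix also differed, with Mon Thbs1 cells at 44.3% of core and 21.7% of section monocytes and Mon Fn1 cells at 30.9% and 54.5%. The part of this mix, or of macrophages and neutrophils, in these group values was not tested.

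Type I interferon response genes were above 0 in 18 of 22 tested in monocytes, with a median of 0.24 and 3 at an unadjusted p under 0.05, beside 129 of all 1093 genes (11.8%). Genes of patrolling and classical blood monocytes were above 0 in 0 of 9 (median -0.35), with Nr4a1, Itgal and Ccr2 among those at an unadjusted p under 0.05. Mitochondrially encoded respiratory genes were above 0 in 0 of 9 (median -0.31). Within Mon Thbs1 cells and within Mon Fn1 cells, each fitted in 6 mice, edgeR called 0 genes, as in all monocytes. An unadjusted edgeR p under 0.05 was reached by 14 of 552 genes within Mon Thbs1 cells and by 36 of 708 within Mon Fn1 cells. In all monocytes, fitted in 12 mice, 129 of 1093 reached it. The part of the monocyte mix in the monocyte genes and groups named above was not tested.

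T cells showed their lowest p for Ccl4, Nkg7 and Psmb9 upward and for mt-Nd1, Rps24-ps3 and Il7r downward. Nkg7, a protein of cytotoxic granules, was at 4885 ± 1892 CPM in the core and 3057 ± 1535 in the section (log2 fold change 0.72 ± 0.20, higher in 10 of 12 mice, edgeR adjusted p = 0.223). Within CD8 Gzmk cells the same fit gave -0.01 for Nkg7 in 7 mice. In all T cells Nkg7 passed without mouse 26 (0.875, edgeR adjusted p = 0.0358) and without mouse 32 (0.828, edgeR adjusted p = 0.0414). It passed in these 2 of 12 exclusions only, with edgeR adjusted p up to 0.463 in the others. Il7r, the receptor that keeps naive and memory T cells alive, was at 282 ± 163 against 458 ± 246 CPM (-0.75 ± 0.25, lower in 10 of 12 mice, edgeR adjusted p = 0.304). Psmb9, a subunit of the immunoproteasome, was higher in 11 of 12 mice (0.91 ± 0.26, edgeR adjusted p = 0.223).

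Cytotoxic effector genes of T cells were above 0 in 6 of 8 tested, with a median of 0.40 against -0.01 over the 655 genes, and Gzmb, Nkg7, Klrd1 and Ccl5 were at an unadjusted p under 0.05, a level reached by 10.5% of the T cell genes. T cell markers in the same sums were above 0 in 5 of 5 tested (median 0.39), with Cd3g and Trac at such a p, and their part in the value of the cytotoxic list was not tested. Mitochondrially encoded respiratory genes were above 0 in 0 of 9 with a median of -0.43, and mt-Nd1 was lower in 12 of 12 mice (3861 ± 1071 against 5657 ± 1209 CPM, edgeR adjusted p = 0.223). This group was below 0 in other lineages too, with 0 of 9 above 0 in macrophages (median -0.28) and in NK cells (median -0.14). In neutrophils 1 of 2 was above 0. Of the T cell genes named for subpopulations, Lef1 and Gzmk did not pass the filter on low counts in the summed T cells.

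In macrophages the lowest adjusted p was shared by Gng2, a G protein subunit, at 214 ± 116 CPM in the core and 76.2 ± 46.1 in the section, higher in 7 of 7 mice (log2 fold change 1.58 ± 0.40, edgeR adjusted p = 0.740), and Vat1, at 93.4 ± 56.1 against 277 ± 172 CPM (-1.45 ± 0.37, lower in 6 of 7 mice, edgeR adjusted p = 0.740). Lipid-associated macrophage genes were above 0 in 2 of 17, with a median of -0.38 against -0.01 over the 1424 genes, and the 3 alveolar macrophage genes tested were all below 0 (median -0.81). Monocyte markers in the same macrophages were above 0 in 7 of 9 (median 0.20), Ccr2 among them at 1.27 with an unadjusted p under 0.05, and their part in these group values was not tested. Mac Cd9 cells were 0.537% of core and 13.7% of section macrophages in 9 mice. The part of the macrophage mix in these group values was not tested either. Car4, a carbonic anhydrase of alveolar macrophages, was chosen after its values were seen. It had 0 UMIs in the macrophages of all 7 cores and a mean of 105 CPM in the sections.

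In NK cells Ccnd2, a D-type cyclin, was at 773 ± 349 CPM in the core and 1376 ± 519 in the section, lower in 8 of 8 mice (-0.84 ± 0.25, edgeR adjusted p = 0.377). Cytotoxic effector genes were above 0 in 3 of 14 tested in NK cells, with a median of -0.33 against -0.04 over the 423 genes. The markers that define NK cells were above 0 in 0 of 7 (median -0.31) and summed to a median of 1.46% of NK cell UMIs in 10 cores and 1.94% in 8 sections. NK Xcl1 cells were 19.4% of core and 8.88% of section NK cells in 11 mice. The part of the markers, or of this mix, in the value of the cytotoxic list was not tested. The T cell and NK cell medians for that list had opposite signs, and the difference between lineages was not tested.

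**Figure D5:**
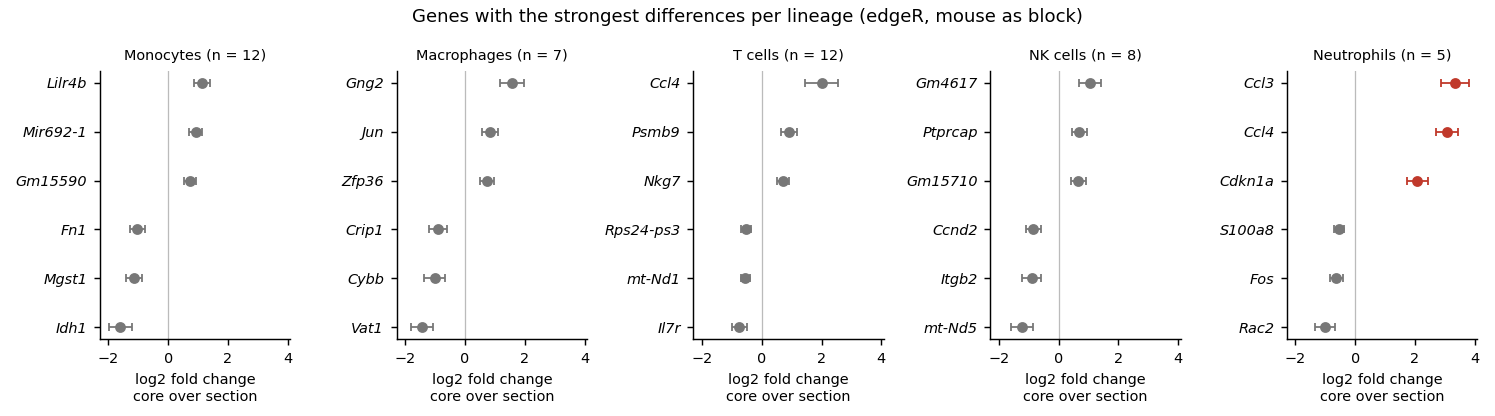
Fitted log2 fold change of core over section (x axis) for the 3 genes with the lowest p in each direction in 5 lineages, with bars of 1 standard error from edgeR with the mouse as block. Red marks genes past an adjusted p of 0.05, which are the 3 neutrophil genes Ccl3, Ccl4 and Cdkn1a, and gray marks the others.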

How the data were processed

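Single immune cells sorted into 384-well plates were profiled by SPID-seq, a plate-based 3' end method. The deposited tables hold raw, unnormalized UMI counts by gene and well. To make these counts the authors mapped reads to mm10 with HISAT, dropped multiply mapped reads and assigned the rest to exons, with an annotation version not given in the sources used here. Subpopulations were taken from the authors' deposited annotation (wells of at least 500 UMIs), and cells were not clustered again. Doublets had been excluded by the sort gate, and no doublet caller was run. Plates of 1 mouse and tissue were pooled as 1 sample. Shares and log2 ratios were compared by exact sign-flip permutation tests over paired mice, where the study's methods use a Student test. The smallest such p is 0.000488 for 12 mice. Genes were tested on summed counts by edgeR 4.0.16 (R 4.3.3, filterByExpr, TMM, mouse as block), with DESeq2 1.42.0 as an alternative, at an adjusted p of 0.05, and the edgeR fits were tested on simulated data. Named genes were those called, otherwise the 3 lowest p in each direction per lineage. Any other gene was named as a member of a list, as called by an alternative or after its values were seen. Gene positions are from GENCODE vM21 (mm10). The members and gene lists were chosen with earlier results of these data known. Pairing comes from the mouse in the labels: deviations from the tissue means correlated by 0.259 on average within a mouse (-0.567 to 0.747, above 0 in 9 of 12) and -0.02 between mice. Precision is limited by the 63 to 584 immune cells per sample.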

Additional observations from a re-analysis of the deposited data

Results flagged for a closer look

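In 4 of 62 groups of 4 to 10 mice examined, 1 mouse stood apart from the others by Dixon's 95% criterion, and chance gives about 1 in 20. Cdkn1a in core neutrophils was 4292 CPM in mouse 28, with the next mouse at 1161 CPM. Cdkn1a in section neutrophils was also highest in mouse 28, at 1189 CPM against 273 CPM. S100a8 in core neutrophils was 286283 CPM in mouse 26, with the next at 87235 CPM. Itgb2 in section NK cells was 1663 CPM in mouse 27, with the next at 991 CPM. The Cdkn1a call did not rest on mouse 28, since leaving out each mouse in turn gave log2 fold changes of 1.98 to 2.16 and edgeR adjusted p of at most 0.0301.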

How the results depend on the processing

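The T cell share, and 3 of the 4 log2 ratios, kept their direction and their call under every alternative run. Without a replicate block, that is ignoring the pairing by mouse, the NK cell difference of 5.31 points no longer passed (permutation adjusted p = 0.104, 3 lineages called), 4 subpopulations were called and no neutrophil gene was (0), and the block changed no other lineage or ratio call. With cells of at least 1000 UMIs, B cells (-1.38 points) and NK cells (5.68) did not pass and 2 lineages and 0 subpopulations were called. There the T cell subpopulations could not pass with the 5 mice left, CD8 Gzmk turned to -4.06 points and Neut Lcn2 to 4.01. With all 13 cores against all 13 sections unpaired, B cells (-1.74) and NK cells (5.51) did not pass, macrophages turned to -0.36 and 2 lineages were called. On centred log-ratios B cells (-0.97) and monocytes (-0.65) did not pass, leaving 2. In the 9 single-batch mice B cells (-1.47), monocytes (-18.0) and NK cells (3.00) did not pass, macrophages turned to -0.42, Mon Ace turned to 0.963, and 1 lineage and 0 subpopulations were called. With 9 mice the smallest p of the exact permutation test is 0.00391, before adjustment over 26 subpopulations. edgeR on cell numbers called neutrophils too (log2 fold change -1.55, adjusted p = 0.0147). As shares of immune cells 7 subpopulations were called, while CD4 Lef1 turned to 0.625, NK Ncr1 to 3.72, Mon MHC-II to -1.80, Mac Cd81 to 0.661, Neut Ptgs2 to -2.75, CD4 S100a4 to 1.53 and CD8 Gzma to 0.514. With at least 20 cells of the lineage 0 were called. Alternatives chosen after seeing the data were section plates of the core's sequencing batch only (B cells -1.28, not passing), thinning to equal UMIs per well (B cells -1.02, not passing, and Mon Ace turned to 1.20) and neutrophils without PMN-MDSC (0 genes). The cause of these shifts was not tested.

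Leaving out each mouse in turn gave 3 to 5 lineages, 0 to 4 subpopulations and 3 ratios called, with B cells at -2.28 to -1.47, neutrophils at -9.77 to -5.39, macrophages at -1.08 to 4.09 (below 0 without mouse 24) and Mon Ace at -3.30 to 0.37 (above 0 without mouse 31). Genes called then numbered 0 to 15 in monocytes (15 of 1079 tested without mouse 32, 1 of 903 without mouse 28). They numbered 0 to 3 in T cells (1 of 785 without mouse 23, 3 of 773 without mouse 26 and 3 of 661 without mouse 32). NK cells had 0 to 1 (1 of 338 without mouse 36) and neutrophils 3 to 6 (6 of 396 without mouse 36). Genes called in monocytes were 23 of 20844 tested without a filter on low counts, 22 of them lower in the core. They were 4 of 1080 in single-batch mice, 11 of 756 with section plates of the core's batch and 16 of 1093 by DESeq2. In macrophages 1 gene of 17390, Car4, was called without a filter. T cells had 1 of 19587 without a filter, 1 of 1189 with at least 20 cells and 2 of 1487 with cells of at least 1000 UMIs. Neutrophils had 7 of 12692 without a filter, 1 of 666 with all samples unpaired and 5 of 308 by DESeq2. In T cells Nkg7 turned to -0.0104 within CD8 Gzmk cells. NK cells at 1000 UMIs, and neutrophils at 1000 UMIs or 20 cells, could not be fitted because too few mice were left. The 3 neutrophil genes rest on 5 mice.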
